A study of Mus musculus with 2 samples.

Results

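The 49 genes described here encode proteins of the lysosome: 8 proteins of its membrane and of lipid export, 12 proteases, 11 glycosidases, 4 sulfatases, 7 lipid hydrolases and activator proteins, 6 parts of the proton pump and the transcription factor Tfeb. Grn, the granulin precursor gene, is counted with the lipid hydrolases and activator proteins. All 49 genes were taken by gene name from the annotation of the arrays. There they were present with 100 probes among 27139 named genes, and the rule uses no measured value. S100A4-positive cells were compared with S100A4-negative cells, both sorted from Peyer's patches of the small intestine of C57BL/6 mice that carried the S100A4-GFP transgene. Before sorting, the tissue was digested with dispase II, collagenase D and DNase I. Both fractions carried the transgene, and the labels define them by S100A4 alone, not by a cell type. The age and number of the mice and whether animals were pooled are not given in the sources used here. Each fraction was measured on 1 single-colour array, so no difference below has a replicate check or a p-value.

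Lysosomes are acid compartments in which hydrolases break down proteins, glycans and lipids that arrive by endocytosis, phagocytosis and autophagy. A proton pump, the V-ATPase, acidifies the lumen, heavily glycosylated membrane proteins line the wall, and transporters carry the products out. Macrophages and dendritic cells of Peyer's patches take up particles and antigens from the gut, and their lysosomal proteases also trim antigens and the invariant chain for presentation on MHC class II. The transcription factors of the MiT/TFE family, TFEB among them, are known to switch on many lysosomal genes through a short DNA element close to their start sites.

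That element was searched for in the promoters of these genes, and its occurrences are shown first. The letters searched were TCACGTGA, which read the same on both strands and contain the shorter E-box CACGTG. The windows were RefSeq promoters of build GRCm38, from 250 bases before to 50 bases after each start site, and 42 of the 49 genes had at least 1. Of these, 7 (16.7%) held the 8-letter element, against 304 of all 27025 genes with a promoter (1.13%), and 15 (35.7%) held the 6-letter E-box, against 8.09% of all genes. In the windows below, printed 5′ to 3′ on the strand of the gene, capitals mark the 8-letter element.

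Ctsd: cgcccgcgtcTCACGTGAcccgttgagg
Gla, farther site: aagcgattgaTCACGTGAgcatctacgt
Gla, nearer site: gagatctcggTCACGTGAgcaactctcg
Cln3: acgggtactgTCACGTGAcccccaacct
Ctsa, before the start: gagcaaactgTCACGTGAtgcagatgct
Ctsa, after the start: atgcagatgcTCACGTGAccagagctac
Atp6v0d1: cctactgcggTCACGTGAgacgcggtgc
Atp6v1a: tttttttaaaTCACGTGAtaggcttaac
Mcoln1: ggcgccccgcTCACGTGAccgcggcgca

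The Ctsd window lies at chr7:142387909-142387936 on the minus strand, with the element 99 bases before the start site, and the element of Mcoln1 lies 46 bases before its start at chr8:3500463-3500490 on the plus strand. Gla and Ctsa carried the element more than once. The differences of the genes with the element, given in full below, ran from -0.14 for Mcoln1 to 1.76 for Ctsd with a median of 0.56, against a median of 0.77 over the 35 members whose promoter lacked it. Of the 7, Ctsd alone was at least 2-fold higher in S100A4-positive cells, beside a share of 21.7% among all detected genes, and whether genes with and without the element differ was not tested. A match of letters is a description of the window and shows neither binding nor its absence.

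Values below are scanner signals of the brightest detected probe of a gene (highest mean of centred log2 signals), first as deposited and then as a log2 difference, S100A4-positive minus S100A4-negative, after each array was centred on the 75th percentile of its own spots. Those percentiles were signals of 287.3 on the S100A4-positive array and 445.9 on the S100A4-negative array, so equal signals correspond to a log2 difference of 0.63. The error given with a difference is that of the scanner software for single spots, close to 0.20 for nearly all members, and it covers neither mice nor sorts nor labelling reactions. The shares of 59305 spots that exceeded background clearly were 52.3% on the S100A4-positive array and 53.3% on the S100A4-negative array. S100a4 itself read 119341 on the S100A4-positive array and 1057 on the S100A4-negative array, a 175-fold difference that goes with the labels of the sort. Spike-in control RNA was 3.61-fold brighter on the S100A4-positive array. Scaling on it in place of the 75th percentile shifts every difference of a gene seen on both arrays by -2.49. Values of genes seen on 1 array are bounds, which stop at 0 where the shift would carry them past it. Every direction below is therefore relative to the 75th percentile of the array.

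Relative to that percentile, 23 of the 49 lysosome genes were higher in S100A4-positive cells by 2-fold or more, 2 were lower by as much and 24 lay within 2-fold, whereas the counts were 2 higher and 31 lower on the spike-in scale and 15 higher and 5 lower without scaling. For comparison, 16078 genes were detected on one array or both, of which 21.7% passed 2-fold upward and 16.6% downward, so the members' 46.9% higher and 4.08% lower stand beside those shares. Of the 49 members 40 had a difference above 0, as did 8152 of the 16078 detected genes. The median difference of the members was 0.77, against 0.02 over all detected genes. On the spike-in scale, which adds the same shift to every gene seen on both arrays, these medians were -1.71 and -2.41. Without the filter on dim probes the median over all genes was 0.43 and that of the members stayed at 0.77, so the gap was 0.35 in place of 0.75. At a size of 4-fold the shares were closer: 7 members (14.3%) were at least 4-fold higher, against 9.93% of all genes. The excess over all genes thus lay mainly in differences between 2-fold and 4-fold. All 49 members were detected, 47 on both arrays and 2, Arsb and Atp6v0d2, on the S100A4-positive array alone, where the difference is a lower bound. In these bulk samples a larger share of a cell type and more RNA of a gene per cell cannot be told apart.

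**Figure D1:**
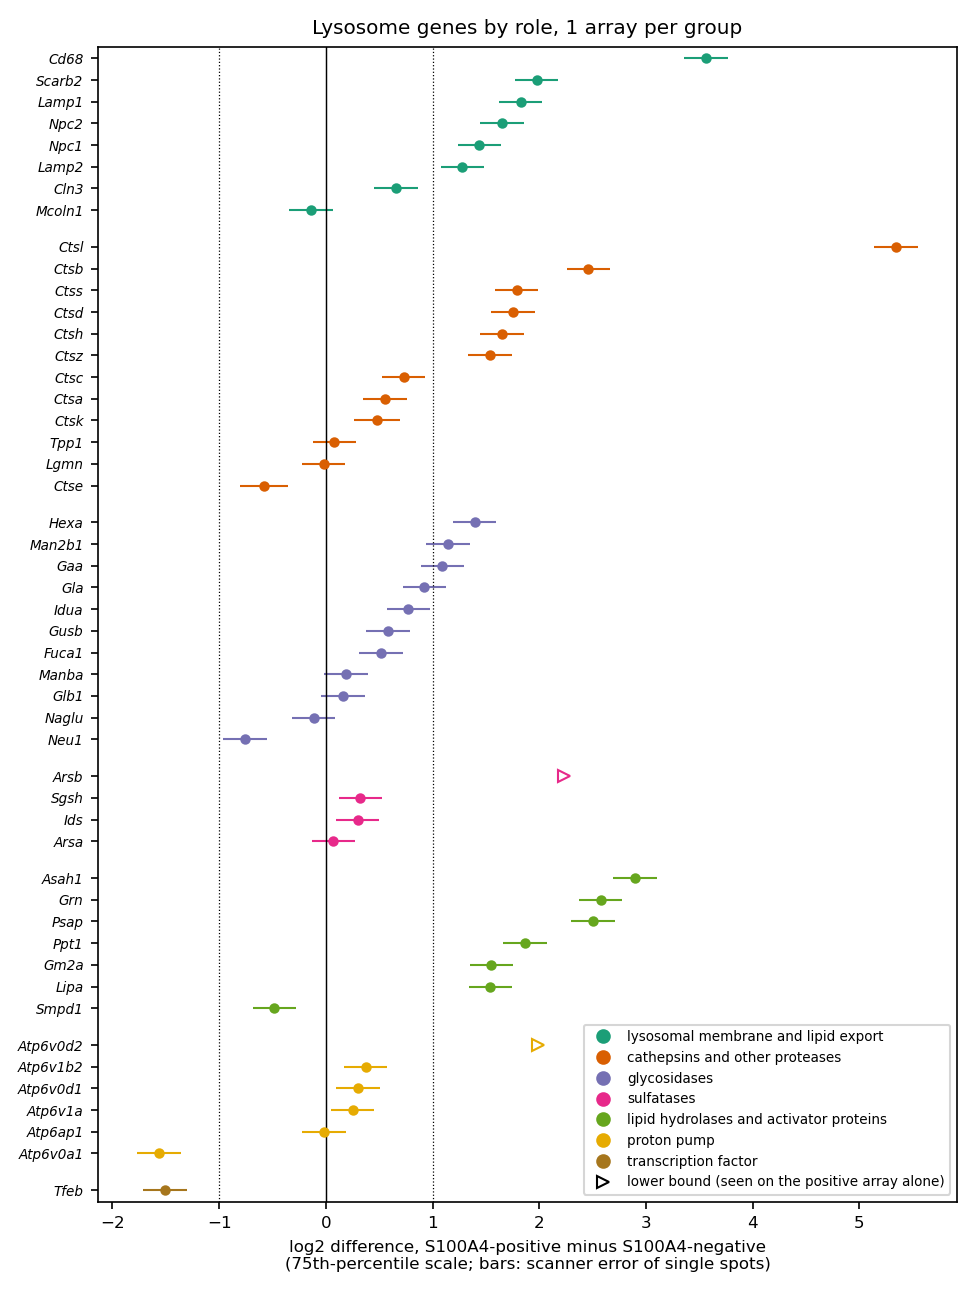
Log2 difference, S100A4-positive minus S100A4-negative, of the 49 lysosome genes on the horizontal axis, grouped by role, with 1 point per gene, bars for the scanner software's error and open triangles for lower bounds; dotted lines mark 2-fold. Ctsl at 5.35 and Cd68 at 3.56 lie farthest to the right and Atp6v0a1 at -1.56 and Tfeb at -1.51 farthest to the left. Scaling on spike-in controls would move the points of genes seen on both arrays by -2.49 and put the lower bounds at 0.

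**Figure D2:**
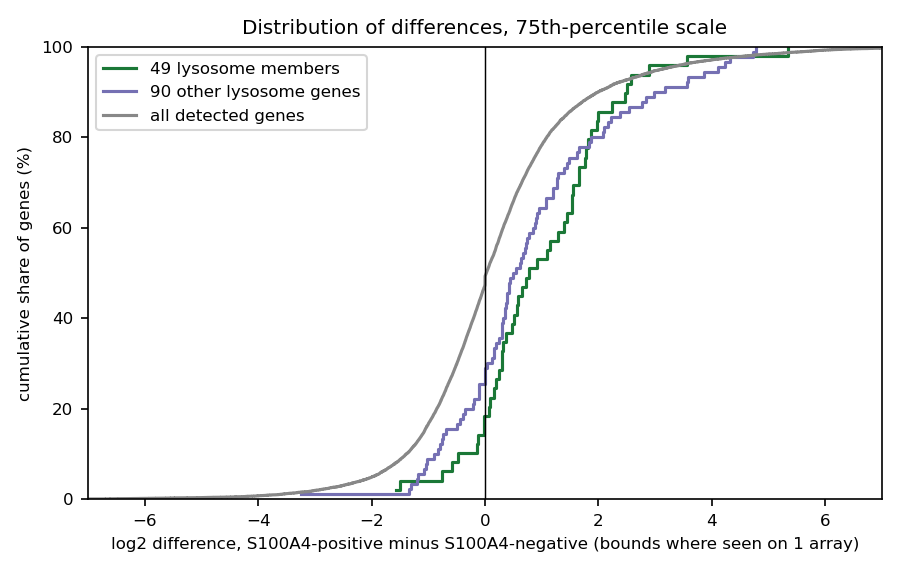
Cumulative share of genes, in percent, against the log2 difference, S100A4-positive minus S100A4-negative, for the 49 members, 90 other lysosome genes and all 16078 detected genes, on the 75th-percentile scale. The members' curve crosses its middle at 0.77 and that of all genes at 0.02, and past 4-fold upward lie 14.3% of the members and 9.93% of all genes. The spike-in scale moves the values of genes seen on both arrays by -2.49.

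Marker RNA of several cell types also differed between the sorted fractions, and these values belong beside every count above. All 9 macrophage markers on the array were at least 4-fold higher in S100A4-positive cells, with a summed signal of 52429 on the S100A4-positive array and 1058 on the S100A4-negative array. All 6 detected dendritic cell markers were at least 2-fold higher, with sums of 26952 and, on the S100A4-negative array, 3339, and Xcr1 was not detected. The 7 B cell markers were all at least 2-fold lower, with sums of 5581 on the S100A4-positive array and 165710 on the S100A4-negative array, and 5 of 7 T cell markers were lower. Epithelial markers were lower in 4 of 6 cases and neutrophil markers in 2 of 4, 1 being higher in each, and fibroblast markers split into 2 higher and 1 lower of 4. Of the endothelial markers 2 of 3 were higher, Cdh5 and Kdr, which were detected on the S100A4-positive array alone. The part of these cell type differences in the lysosomal values was not tested.

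Among the proteins of the lysosomal membrane and of lipid export, 6 of 8 genes (75%) passed 2-fold upward in S100A4-positive cells and none downward. The shares of all detected genes were 21.7% and 16.6%. However, on the spike-in scale Cd68 alone stayed above 0. Cd68, the macrosialin gene typical of phagocytes, read 7076 on the S100A4-positive array and 930.6 on the S100A4-negative array, and its difference of 3.56 ± 0.20 (11.8-fold) was the second largest of all members. Its other 2 probes gave 3.78 and 4.44, so the 3 Cd68 probes ran the same way. Lamp1, a major glycoprotein of the lysosomal wall, read 32595 on the S100A4-positive array and 14276 on the S100A4-negative array, a difference of 1.83. Scarb2, the receptor that carries the enzyme beta-glucocerebrosidase to the lysosome, stood at 1.98 with its brightest probe. The other Scarb2 probe gave 0.64, so the side of 2-fold changed with the probe. Of the cholesterol exporters, Npc2 stood at 1.65 and Npc1 at 1.44 with its brightest probe, while the other detected Npc1 probes gave 2.44 and 2.58.

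Lamp2, the other major wall glycoprotein, was at 1.28 with its brightest probe, which targets transcript variant 2 of the gene, and read 2753 on the S100A4-positive array and 1761 on the S100A4-negative array. The probe for transcript variant 1 gave 1.86, and a probe for an Ensembl transcript gave 0.63, so all 3 probes lay above 0 on this scale and differed in size. Cln3, whose loss causes a childhood lysosomal storage disease in humans, lay within 2-fold at 0.66, and so did Mcoln1, the lysosomal calcium channel TRPML1, which read 2146 on the S100A4-positive array and 3672 on the S100A4-negative array, a difference of -0.14 ± 0.20.

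The proteases divided evenly, with 6 of 12 (50%) at least 2-fold higher and none 2-fold lower in S100A4-positive cells. The shares of all detected genes were 21.7% and 16.6%. On the spike-in scale only Ctsl stayed above 0. Ctsl, the cysteine protease cathepsin L, read 11541 on the S100A4-positive array and 440.5 on the S100A4-negative array, and its difference of 5.35 ± 0.20 (40.7-fold) was the largest of all members. This probe, at chr13:64465287-64465346 of build mm9 on the minus strand, was spotted 10 times, with a standard deviation between spots of 0.04 on the S100A4-positive array and 0.11 on the S100A4-negative array (log2). A second probe that the array names Ctsl, made for a cDNA clone and not for the RefSeq mRNA, lay at chr13:64463434-64463493 and gave 2.28 at far lower signals of 107.2 on the S100A4-positive array and 34.2 on the S100A4-negative array.

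The other higher proteases were closer to each other, between 1.54 and 2.46. Ctsb, a cathepsin with endopeptidase and exopeptidase activity, read 29589 on the S100A4-positive array and 8338 on the S100A4-negative array, a difference of 2.46. Ctss, which cleaves the invariant chain in antigen-presenting cells, was bright on both arrays, with 65970 on the S100A4-positive array and 29649 on the S100A4-negative array, and stood at 1.79. Ctsd, the aspartic protease with the promoter element shown above, was at 1.76, the aminopeptidase gene Ctsh at 1.65 and the carboxypeptidase gene Ctsz at 1.54. The 4 detected Ctsh probes lay between 1.62 and 1.99.

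The 6 proteases within 2-fold included some that antigen-presenting cells are known to use. Lgmn, the asparaginyl endopeptidase legumain, read 7555 on the S100A4-positive array and 11890 on the S100A4-negative array, a difference of -0.02 ± 0.20. Tpp1, a tripeptidyl peptidase, was at 0.08 and Ctsa, the carboxypeptidase that protects beta-galactosidase and neuraminidase, at 0.56. Ctsc, which activates the serine proteases of cytotoxic and granulocyte granules, was at 0.73 with its brightest probe and at 1.20 and 2.27 with its others, so its side of 2-fold changed with the probe. Ctsk, the collagen-degrading protease of osteoclasts, and the aspartic protease gene Ctse were dim on both arrays. Ctsk read 98.1 on the S100A4-positive array and 109.2 on the S100A4-negative array, a difference of 0.48, and Ctse read 65.9 on the S100A4-positive array and 152.7 on the S100A4-negative array, a difference of -0.58.

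The group of lipid hydrolases and their activator proteins also counts Grn, which encodes a granulin precursor. Of this group 6 of 7 passed 2-fold upward in S100A4-positive cells, or 5 of 7 if Grn is read from its opposing probe described below. The share for 6 of 7 is 85.7%, against 21.7% of all detected genes. Of the 6, Asah1, Grn and Psap stayed above 0 on the spike-in scale at 0.41, 0.09 and 0.02. Asah1, acid ceramidase, read 5219 on the S100A4-positive array and 1089 on the S100A4-negative array, a difference of 2.90 ± 0.20 (7.44-fold). Psap, the precursor of the saposins that present sphingolipids to their hydrolases, was 5.68-fold higher, with 17836 on the S100A4-positive array and 4875 on the S100A4-negative array. The palmitoyl-protein thioesterase gene Ppt1 followed at 1.86, with its probes between 1.66 and 2.85, then Gm2a, the activator of ganglioside breakdown, at 1.55 and the acid lipase gene Lipa at 1.54. Smpd1, acid sphingomyelinase, was the exception within 2-fold, with 1028 on the S100A4-positive array, 2229 on the S100A4-negative array and a difference of -0.48 ± 0.20. Both Smpd1 probes were below 0, the other at -0.30.

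Grn, the precursor of the granulins, had 3 probes for the same RefSeq mRNA that did not run the same way. The first 30 of the 60 bases of each probe, 5′ to 3′, are shown in the order of their positions along the gene on the plus strand of build mm9.

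Grn, chr11:102294591-102294650: atggccactgtcctgctggctattcttgtc
Grn, chr11:102296724-102296783: tgatgacttcactaggtgtcctacaaacaa
Grn, chr11:102298060-102298119: gcttgcttgtgtgtgtgtgcgcgtgtgcgt

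The last of these, used for the gene because its mean of centred log2 signals over both arrays was highest, read 26957 on the S100A4-positive array and 7019 on the S100A4-negative array, a difference of 2.58. The middle probe ran the same way, with 1619 on the S100A4-positive array, 263.9 on the S100A4-negative array and a difference of 3.25. The first probe read 706.8 on the S100A4-positive array and 110370 on the S100A4-negative array, a difference of -6.65. Its direction opposed that of both other probes, and on a plain mean of the signals it would be the brightest of the 3, which would put Grn at -6.65. The direction of Grn therefore rests on how the probe is chosen, and what the first probe bound was not tested.

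Glycosidases, which remove sugars from glycoproteins, glycolipids and glycosaminoglycans, had a median difference of 0.58. Above 0 lay 9 of the 11 genes, beside 8152 of all 16078 detected genes. In S100A4-positive cells 3 of 11 genes passed 2-fold upward and none downward, shares of 27.3% and 0% against 21.7% and 16.6% of all genes, and all 3 fell below 0 on the spike-in scale. Hexa, the alpha subunit of beta-hexosaminidase, read 3111 on the S100A4-positive array and 1836 on the S100A4-negative array, a difference of 1.40. Man2b1, lysosomal alpha-mannosidase, at 1.15 ± 0.20 and Gaa, acid alpha-glucosidase, at 1.09 ± 0.20 lay within their error of the 2-fold line, as did Gla, alpha-galactosidase A, on its other side at 0.92 ± 0.20. Gla was bright on both arrays, with 51118 on the S100A4-positive array and 41824 on the S100A4-negative array.

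The other glycosidase genes ran from 0.77 for Idua, which acts on glycosaminoglycans, through Gusb (beta-glucuronidase) at 0.58, Fuca1 (alpha-fucosidase) at 0.52, Manba (beta-mannosidase) at 0.19, Glb1 (beta-galactosidase) at 0.16 and Naglu, which degrades heparan sulfate, at -0.11, to Neu1. Neu1, lysosomal neuraminidase, had the lowest value of the hydrolases among the members, with 2698 on the S100A4-positive array, 7068 on the S100A4-negative array and a difference of -0.76 ± 0.20. These values are those of the brightest probes. The other Gusb probe gave 1.16, the other Manba probe -0.72, and the 5 detected Glb1 probes ran from -1.62 to 0.32. Of the sulfatases, 3 of 4 lay within 2-fold: Sgsh at 0.32 and Ids at 0.30, which both act on heparan sulfate, and Arsa, which acts on sulfatide, at 0.07. A dim second Sgsh probe, seen on the S100A4-positive array alone, gave a bound of 1.57. Arsb, which removes sulfate from dermatan sulfate, was dim, with 48.997 on the S100A4-positive array and 14.6 on the S100A4-negative array, which did not exceed background clearly. It was at least 4.71-fold higher, and its other detected probe for the RefSeq mRNA gave a bound of 1.85 on the log2 scale. Another detected probe that the array names Arsb, made for a cDNA clone, gave 1.08. That probe lies on the minus strand at chr13:94541097-94541156 of build mm9, whereas the RefSeq probes lie on the plus strand. On the spike-in scale no fold could be given for Arsb.

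The proton pump members had a median difference of 0.28, with 1 gene past 2-fold upward and 1 downward, namely Atp6v0d2 and Atp6v0a1. These shares of 16.7% each were close to the 21.7% and 16.6% of all detected genes. Of the 6 members, 4 lay within 2-fold: the d1 subunit gene Atp6v0d1 at 0.30, Atp6v1a at 0.25 and Atp6v1b2 at 0.37, which encode the subunits that bind and split ATP, and the accessory gene Atp6ap1 at -0.02. Atp6v0a1, one form of the proton-translocating a subunit, read 571.9 on the S100A4-positive array and 2623 on the S100A4-negative array and was 2.96-fold lower (-1.56 ± 0.20). A second Atp6v0a1 probe, made for a cDNA clone, gave -1.76, but a dim probe for the RefSeq mRNA whose span crosses an intron gave 0.02. Atp6v0d2, the form of the d subunit known from osteoclasts and macrophages, was well above background on the S100A4-positive array alone. It read 41.4 there and 6.86 on the S100A4-negative array, a lower bound of 3.98-fold. With normexp background correction the Atp6v0d2 bound was 0.99 on the log2 scale, and with the spike-in scale no fold could be given. Its other probe, for the same RefSeq mRNA, was detected on neither array, with 7.12 on the S100A4-positive array and 3.42 on the S100A4-negative array.

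Of the 19 other pump genes of a list chosen for comparison, 14 were detected. Of the detected ones 6 (42.9%) passed 2-fold upward and none downward, against 21.7% and 16.6% of all detected genes. On the spike-in scale all 6 would be below 0. Tcirg1, the a3 form of the a subunit found in osteoclasts and immune cells, was highest of these at 1.62 ± 0.20. It read 10596 on the S100A4-positive array and 5342 on the S100A4-negative array. The accessory gene Atp6ap2 followed at 1.38, then Atp6v0b at 1.29, although the other detected Atp6v0b probe gave 0.68, within 2-fold. Atp6v0a2, a further form of the a subunit named here after its values were seen, read 785.4 on the S100A4-positive array and 2271 on the S100A4-negative array, a difference of -0.90. Its 3 detected probes ran from -1.88 to -0.44. The 3 a-subunit genes thus lay on both sides of 0, with Tcirg1 above and Atp6v0a1 and Atp6v0a2 below, while on the spike-in scale all 3 were below 0, at -0.86, -4.05 and -3.38. Atp6v0e2 was detected on the S100A4-negative array alone, too dim for a fold.

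**Figure D3:**
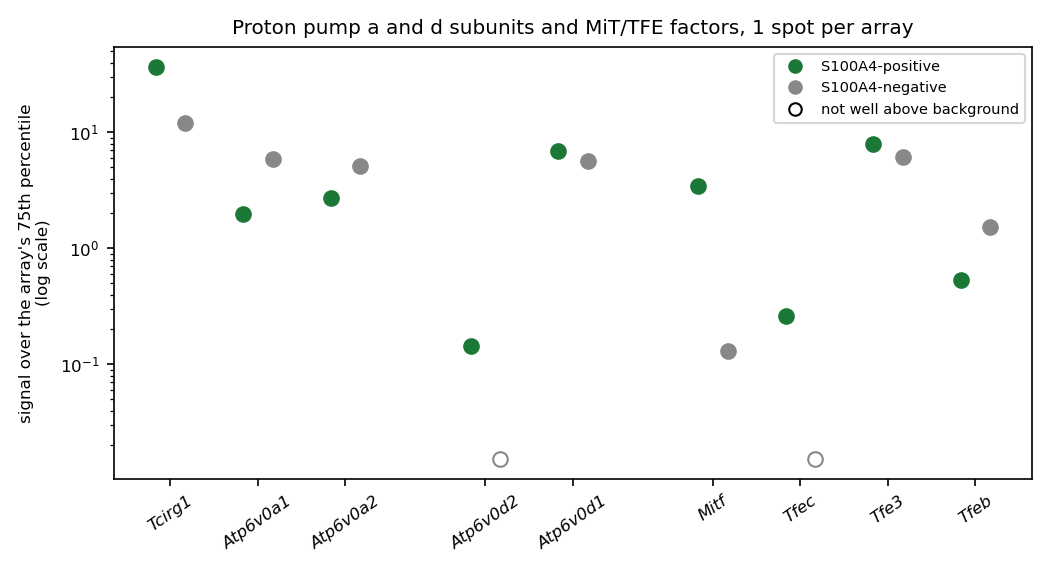
Signal over the 75th percentile of the array (log axis) for forms of the proton pump a subunit (Tcirg1, Atp6v0a1, Atp6v0a2) and d subunit (Atp6v0d2, Atp6v0d1) and for the MiT/TFE factors, with the S100A4-positive array in green left of the S100A4-negative array in grey and open circles for spots not well above background. The arrays are to be compared within a gene: Mitf differs most, by 4.73, Tcirg1 is higher by 1.62 and Atp6v0a1 and Tfeb are lower; the spike-in scale lowers every green point by 2.49 on the log2 scale.

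Tfeb, the transcription factor best known for driving lysosomal genes, was one of the 2 members at least 2-fold lower in S100A4-positive cells. Its brightest probe read 154.2 on the S100A4-positive array and 679.4 on the S100A4-negative array, a difference of -1.51 ± 0.21 (2.84-fold lower), and 2 further probes for RefSeq mRNAs of the gene gave -0.90 and -0.50. The remaining probe, for a predicted transcript far upstream, gave 1.18, with 200.8 on the S100A4-positive array and 137.5 on the S100A4-negative array. The median of the 4 probes, -0.70, lay within 2-fold, so the call of Tfeb rests on its brightest probe.

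Of the other factors of the same family, Mitf and Tfec ran the other way past 2-fold and Tfe3 did not. Mitf, the family member studied most in melanocytes and osteoclasts, read 996.3 on the S100A4-positive array and 58.2 on the S100A4-negative array and was 26.6-fold higher, with its 4 probes between 3.41 and 5.45, and it stayed above 0 on the spike-in scale at 2.25. Tfec, expressed in macrophages, was well above background on the S100A4-positive array alone, with 74.6 there and 6.81 on the S100A4-negative array. With this brightest probe Tfec was at least 7.17-fold higher, a log2 bound of 2.84, and its other detected probe gave 1.71. Tfe3, named here after its values were seen, lay within 2-fold at 0.39. Its difference was -0.24 without scaling and -2.10 on the spike-in scale. The 4 genes of the family thus differed in direction on the 75th-percentile scale, with Tfeb below 0 and the others above it.

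Beyond the members, 32 of 90 detected genes of the other lysosome lists passed 2-fold upward (35.6%) and 8 downward (8.89%). The shares of all detected genes were 21.7% and 16.6%. On the spike-in scale the counts were 8 and 68, without scaling 21 and 17, and with normexp background correction 29 and 2. Of 33 further hydrolases 12 (36.4%) were higher and 2 (6.06%) lower. The cysteine protease gene Ctsf, detected on the S100A4-positive array alone, was at least 17.3-fold higher, the phospholipase B-like gene Plbd1 stood at 3.55 and the acid phosphatase gene Acp2 at 3.18, all above 0 on the spike-in scale. The lower ones were Ctsw, a cathepsin of cytotoxic lymphocytes, at -1.08 ± 0.20 and the sulfatase gene Arsg at -1.02 ± 0.27. Both lay within their error of the 2-fold line. Arsg was dim, with 30.9 on the S100A4-positive array and 97.1 on the S100A4-negative array, and its other detected probe gave -0.16.

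Of 25 further membrane proteins 6 were higher and 3 lower, close to the share of all genes, but those that were higher differed by large amounts. Slc11a1, the metal transporter NRAMP1 of phagocyte lysosomes, read 1514 on the S100A4-positive array and 85.8 on the S100A4-negative array, a difference of 4.78, and the tetraspanin gene Cd63 stood at 4.33; both stayed above 0 on the spike-in scale, at 2.29 and 1.84. Gpnmb, a glycoprotein gene of macrophages and melanocytes, was seen on the S100A4-positive array alone and was at least 18.8-fold higher. The lower ones were the cobalamin transporter gene Lmbrd1 at -1.30, with its other detected probe at -0.66, and the mucolipin genes Mcoln2 and Mcoln3. Mcoln2 at -1.04 ± 0.20 lay within its error of the 2-fold line. Mcoln3 was seen on the S100A4-negative array alone and was at least 2.52-fold lower. Mfsd8 was also seen on that array alone, too dim for a fold. In the group of mucolipin channels none was thus 2-fold higher, Mcoln1 lying at -0.14.

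Genes that sort hydrolases to the lysosome went both ways, in shares close to those of all genes. Of the 10 genes 2 (20%) passed 2-fold upward and 2 (20%) downward, against 21.7% and 16.6% of all detected genes. Sort1, the sorting receptor sortilin, was at 2.77 (0.82 with its lowest probe), and M6pr, the cation-dependent mannose 6-phosphate receptor, at 1.27. The other mannose 6-phosphate receptor gene, Igf2r, was at -1.18 ± 0.20, within its error of the 2-fold line. Igf2r read 379.6 on the S100A4-positive array and 1334 on the S100A4-negative array. The adaptor gene Gga2 was at -3.24, although another of its probes gave 0.28. The remaining 6 of the 10 sorting genes lay within 2-fold.

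Among inhibitors of the cathepsins, 4 of 5 detected cystatin and stefin genes (80%) passed 2-fold upward and 1 (20%) downward. The shares of all detected genes were 21.7% and 16.6%. Cst3, cystatin C, an inhibitor of secreted and lysosomal cysteine proteases, read 51890 on the S100A4-positive array and 6702 on the S100A4-negative array, a difference of 3.59, and stayed above 0 on the spike-in scale at 1.102. Cstb, the cytosolic inhibitor stefin B, was at 2.39, and Stfa2, whose family members are close in sequence so that its value is uncertain, at 2.17, both just below 0 on the spike-in scale. Cst6 was the lower one, at -1.21 ± 0.30, within its error of the 2-fold line. It was dim, with 24.7 on the S100A4-positive array and 88.6 on the S100A4-negative array.

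The member probes were also counted without a choice of probe, so the probes used above are among them. Of the 100 member probes 90 were detected on at least 1 array, of which 44 passed 2-fold upward and 5 downward, with a median of 0.96. The shares over all probes were not computed, so these counts have none beside them, and genes with several probes weigh more. Probes made for RefSeq mRNAs had a median of 0.94 and those made for cDNA clones, Ensembl or predicted transcripts one of 0.98. Of 25 genes with several detected probes, 12 had probes that differed by more than 1 on the log2 scale, and in 2 of them, Grn and Tfeb, detected probes passed 2-fold in both directions. Apart from these, Atp6v0a1, Ctsc, Gaa, Gusb, Lamp2, Scarb2, Glb1 and Sgsh had probes on both sides of the 2-fold line.

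**Figure D4:**
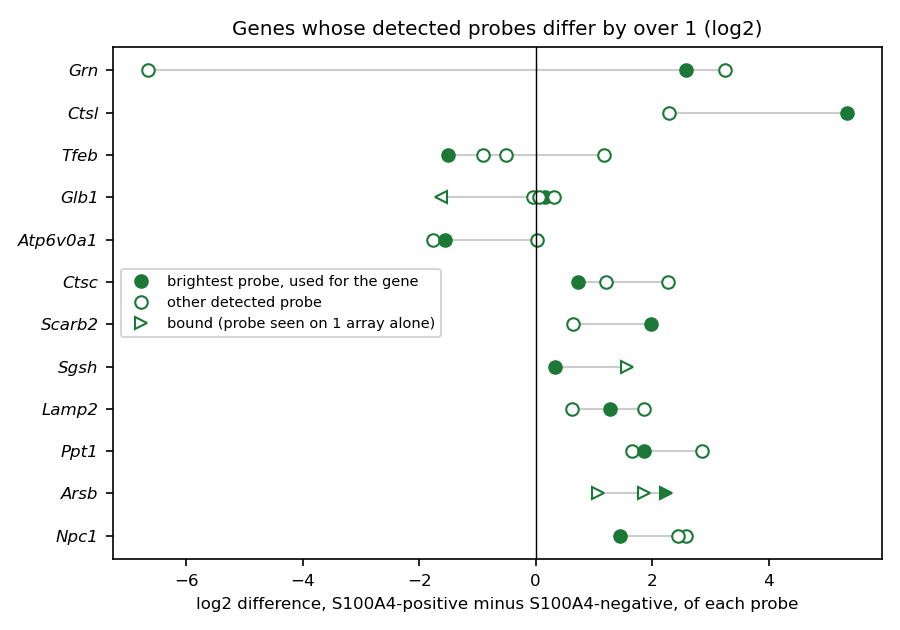
Log2 difference, S100A4-positive minus S100A4-negative, of every detected probe of the 12 lysosome genes whose probes differ by over 1, with the probe used for the gene filled, other probes open and triangles for bounds. Grn spans -6.65 to 3.25 and Tfeb -1.51 to 1.18, both crossing 0, as Glb1 and Atp6v0a1 also do, while Ctsl, Ctsc, Scarb2, Sgsh, Lamp2, Ppt1, Arsb and Npc1 stay right of 0. The spike-in scale moves every point of a probe seen on both arrays by -2.49.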

How the data were processed

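Total RNA of 1 sample per fraction was amplified and labelled with Cy3, per the labels' protocols, and each was hybridised to an Agilent array of design 74809. The deposited intensities are processed signals that Feature Extraction 10.7.1.1 had background-subtracted and detrended within each array, per the file headers; version 9.5.1.1 stands in the submitters' processing notes. The authors' other deposited values were flags for spots and a value table with 1 intensity per probe, used as an alternative. Depth has no counterpart here: the number of arrays limits the precision, and detected spots had a median raw signal 5.35 times the local background on the S100A4-positive and 6.80 times on the S100A4-negative array.

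Control spots and outlier spots (80 on the S100A4-positive and 138 on the S100A4-negative array, none of a member) were left out, and no spot was saturated. Log2 signals were centred on each array's 75th percentile and averaged over spots of a probe. A gene, named by the array's own annotation (mm9), took the probe with the highest mean of centred log2 signals among those well above background on at least 1 array. A gene seen on 1 array has a bound: its bright value is set against its own dim value or the smallest clearly detected signal of the dim array, whichever is higher. With 1 array per group no test was possible, so fixed sizes of 2-fold and 4-fold were used. The exon or UTR a probe lies in was not analysed here.

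The members and lists were chosen with earlier results of these data known. All members could be named, and of each other list up to 3 genes each way past 2-fold plus those seen on 1 array. Alternatives were quantile normalization, other percentile, spike-in and no scaling, normexp (limma 3.58.1, R 4.3.3), filters, the median over probes, the value table and names by RefSeq accession. Python 3.11.15, numpy 2.4.6 and pandas 2.3.3 were used, and the steps were tested on simulated data.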

Additional observations from a re-analysis of the deposited data

How the results depend on the processing

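The count of members at least 2-fold higher (23) and lower (2) moved with the scaling: 2 and 31 with spike-in controls, 15 and 5 without scaling. The median of 0.77, the same with genes at their bounds, was -1.71 on the spike-in scale, 0.14 without scaling and 1.01 with the median over a gene's probes (0.95 at bounds), where 1 gene was lower. On the spike-in scale 16 genes that were higher lay below 0: Lamp1 at -0.66, Lamp2 at -1.21, Scarb2 at -0.51, Npc1 at -1.05, Npc2 at -0.83, Ctsb at -0.024, Ctsd at -0.73, Ctsh at -0.83, Ctss at -0.70, Ctsz at -0.95, Hexa at -1.09, Gaa at -1.39, Man2b1 at -1.34, Lipa at -0.94, Ppt1 at -0.62 and Gm2a at -0.93. Without the filter on dim probes the median over all genes was 0.43 in place of 0.02. The share of higher among all genes past 2-fold was 56.7% here, 4.48% on the spike-in scale and 27.4% without scaling. Under the other alternatives 20 to 23 of the 23 remained at least 2-fold higher: normexp put Gaa, Man2b1 and Atp6v0d2, and the deposited value table Man2b1, below that size, and Arsb and Atp6v0d2 are absent where both arrays must detect a gene. The cause of these changes was not tested, apart from the shift that spike-in or no scaling adds to every gene seen on both arrays. Dim genes such as Ctsk, Ctse, Arsb and Atp6v0d2 are limited by signal over background. No paired analysis was possible because each group has 1 array.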
